A study of Homo sapiens with 2 samples.

Results

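Endothelial cells carry a small set of genes that mark their identity, and the 10 described here are CDH5, CLDN5, PECAM1, KDR, TEK, TIE1, ESAM, EMCN, SOX17 and EGFL7. They were taken by symbol from the 32738 genes of 1 droplet-based single-cell RNA library. PECAM1 was not analysed here because no row was found under its symbol, and the other 9 members each had at least 1 UMI, a unique molecular identifier that counts an mRNA molecule once. The library was made from the induced pluripotent stem cell line iPS11, whose CD34+ cells had been placed in medium for the endothelial-to-hematopoietic transition (EHT) and whose nonadherent cells were collected on day 5. The wells differed in their coating, which was Uncoated, VCAM1 (an adhesion molecule), DLL4 (a Notch ligand) or DLL4+VCAM1. The 3 wells of each of the 4 coatings were combined, stained with 1 hashtag antibody (Hashtag-0252, Hashtag-0253, Hashtag-0254 or Hashtag-0255) and mixed into a single library. The sources used here tie no hashtag to a coating, so hashtags are compared by number only. Cells that stayed attached were not collected, only 1 line was used, and there are no replicates, so every interval below is a 95% interval for counting error only and no p-value is given. Differences between hashtags or gates may therefore lie within the spread between cultures, which was not measured.

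Of 10836 barcodes, the 7550 (69.7%) with a single hashtag call were kept if they had no more than 36000 UMIs and 6000 genes and if mitochondrial genes gave 18% of their UMIs or less. They held 142110950 UMIs, with a median of 18318.5 per cell, and 1571 to 2136 cells carried each hashtag. Levels are given as UMIs per 1000000 (CPM) of the summed cells. Each molecule is counted once at its 3′ end, so levels were not divided by gene length. A list of 12 blood identity genes was used to check the label of the cells. Its members ranged from 31.3 CPM for VAV1, a signalling protein of blood cells, to 963 CPM for ARHGDIB, and the next highest were CORO1A at 455.8, GMFG at 272.9 and SPN (CD43) at 257.6 CPM. SPN was detected in 92.2% of the cells and PTPRC (CD45) in 67.4%, so the great majority of these cells were blood cells by these markers.

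During EHT, hemogenic endothelial cells lose their junctions, round up and detach as blood cells, and genes of the endothelial program are switched off while blood genes are switched on. VE-cadherin and claudin-5, encoded by CDH5 and CLDN5, seal contacts between endothelial cells, and ESAM is an adhesion protein of the same junctions that platelets also carry. KDR is the main receptor for VEGF, TEK (TIE2) is the angiopoietin receptor and TIE1 its partner. EMCN is a surface sialomucin of venous and capillary endothelium, EGFL7 is a secreted matrix protein whose gene is also used by blood progenitors, and SOX17 is a transcription factor of arterial and hemogenic endothelium.

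On hg19, with positions from the GENCODE annotation of that build, CDH5 spans chr16:66400593-66438687 on the plus strand, CLDN5 chr22:19510547-19515068 on the minus strand and ESAM chr11:124622479-124632186 on the minus strand. KDR lies at chr4:55944648-55991762 and EMCN at chr4:101316498-101801283, both on the minus strand. TEK at chr9:27109139-27230172, EGFL7 at chr9:139553308-139567130 and TIE1 at chr1:43766653-43788779 are on the plus strand.

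To show what lies before the start of members that followed different patterns, the 250 bases upstream of the start are given for KDR, which was found in few cells, and for TIE1 and EGFL7, which were found in many. They are RefSeq sequences of another build, GRCh38.p14, at chr4:55125596-55125845 on the minus strand, chr1:43300732-43300981 on the plus strand and chr9:136658606-136658855 on the plus strand, the last before the first of 2 EGFL7 starts in the table. Capitals mark matches, on either strand, to letters bound by factor families of endothelial and blood cells, which were CCGGAA and CAGGAA for ETS factors, AGATAA for GATA factors and TGTGGT for RUNX factors. These motifs do not overlap one another where they are marked.
KDR: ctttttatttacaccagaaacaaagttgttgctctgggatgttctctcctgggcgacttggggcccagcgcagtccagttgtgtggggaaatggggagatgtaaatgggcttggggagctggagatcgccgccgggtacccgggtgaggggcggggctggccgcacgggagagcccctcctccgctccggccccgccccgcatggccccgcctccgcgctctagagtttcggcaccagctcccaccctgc
TIE1: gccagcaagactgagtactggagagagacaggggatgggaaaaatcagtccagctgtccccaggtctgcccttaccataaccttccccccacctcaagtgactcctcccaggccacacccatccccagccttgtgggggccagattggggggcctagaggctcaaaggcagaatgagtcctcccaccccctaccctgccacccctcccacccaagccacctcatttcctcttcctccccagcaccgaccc
EGFL7: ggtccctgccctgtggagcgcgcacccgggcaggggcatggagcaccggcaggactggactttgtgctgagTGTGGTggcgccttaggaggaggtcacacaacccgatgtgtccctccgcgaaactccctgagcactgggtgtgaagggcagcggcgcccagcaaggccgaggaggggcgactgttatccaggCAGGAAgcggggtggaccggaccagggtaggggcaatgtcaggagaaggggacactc
EGFL7 held 1 CAGGAA and 1 TGTGGT match, and the windows of KDR and TIE1 held none of the 4 motifs. Of 35116 promoter windows of the same length, 14.5% held CCGGAA, 24.1% CAGGAA, 9.17% AGATAA and 11.0% TGTGGT. Windows were found for 5 members (KDR, TEK, TIE1, EMCN and EGFL7) and none for CDH5, CLDN5 or ESAM. Among windows not printed, that of EMCN held 1 CAGGAA match, and that before the second EGFL7 start held 1 CAGGAA and no TGTGGT match. One TEK window held 1 CAGGAA and 1 AGATAA match and the other none. Matches were thus found before rare members as well. A match is a description of letters and not of binding.

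EGFL7, TIE1 and ESAM were widespread in these cells, and the other 6 members were rare. EGFL7 had 29535 UMIs, or 207.8 CPM (205.5 to 210.2), and was detected in 6109 cells (80.9%). TIE1 reached 28.1 CPM (27.3 to 29.0) in 37.5% of cells and ESAM 23.7 CPM (22.9 to 24.5) in 24.3%. All of the remaining members were under 3 CPM. EMCN was at 2.20 CPM (1.96 to 2.45) in 2.94% of cells, and TEK at 1.10 CPM (0.939 to 1.29) in 1.89%. CDH5 had 186 UMIs, which is 1.31 CPM (1.13 to 1.51), in 115 cells (1.52%). KDR had 158 UMIs, or 1.11 CPM (0.945 to 1.30), in 63 cells (0.834%). CLDN5 had 146 UMIs, or 1.03 CPM (0.867 to 1.21), in 62 cells (0.821%). SOX17 was the lowest member, with 38 UMIs in 11 cells (0.146%) and 0.267 CPM (0.189 to 0.367). The intervals of CDH5, KDR, TEK and CLDN5 overlapped, so their order is not resolved at this depth. After each cell was thinned to 5000 UMIs, which left 7482 cells, EGFL7 was detected in 52.6%, TIE1 in 12.8%, ESAM in 8.82% and CDH5 in 0.521%. The gap between widespread and rare members was thus present at equal depth.

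**Figure D1:**
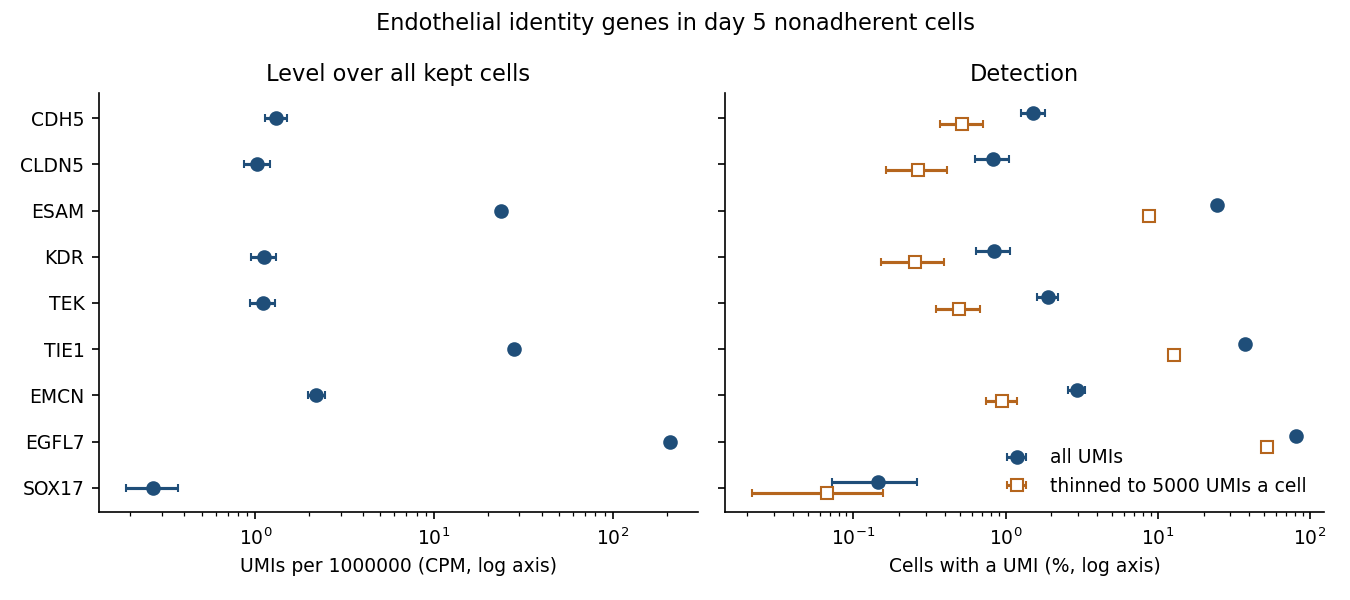
Level in CPM (left, log axis) and percent of cells with at least 1 UMI (right, log axis) for the 9 members over 7550 cells, with 95% counting intervals, before and after thinning to 5000 UMIs a cell. EGFL7, TIE1 and ESAM lie above 20 CPM and every other member lies under 3 CPM.

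The rare members differed in how their UMIs were spread over cells. TEK was spread thinly: 134 of its 143 positive cells (93.7%) had a single UMI and its highest cell had 5. KDR was concentrated, since 50 of its 63 positive cells had 1 UMI while 1 cell had 47 and the top 2 cells held 45.6% of all its UMIs. The top 2 cells held 55.3% of SOX17, 23.7% of CDH5 and 21.2% of CLDN5 UMIs, against 0.278% of EGFL7 UMIs. These 4 concentrated members (CDH5, CLDN5, KDR and SOX17, a grouping made after their values were seen) were detected in 215 cells (2.85%), of which 179 had a single UMI of the 4 in all. A set of 8 cells (0.106%) held 3 or 4 of the 4 genes. These 8 cells had 264 of the 528 UMIs of the 4 genes, which is 50%, with 78.9% of SOX17, 57.0% of KDR, 50% of CLDN5 and 38.2% of CDH5. They held 7.64% of TEK, 5.77% of EMCN and under 1.5% of ESAM, TIE1 and EGFL7 UMIs. Because these cells were picked by the 4 genes, the concentration of those genes in them is a description.

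Compared with most kept cells, the 8 cells had few blood transcripts. Summed over the 12 blood identity genes, they stood at 844 CPM, compared with 2698 CPM in the 7335 cells with none of the 4 genes. Cell by cell, the blood list ranged from 0 to 1655 CPM with a median of 457.3 in the 8 cells, while the median over all kept cells was 2699 CPM and their 5th percentile was 1791 CPM. SPN and CORO1A were each at 0 UMIs in 5 of the 8 cells, RUNX1 in 6 and PTPRC in 4. The 24 other endothelial genes of the second list summed to 5866 CPM in them and to 169 CPM in the cells with none. The cell with most endothelial UMIs, from Hashtag-0253 with 20566 UMIs in all, had 47 KDR, 27 CDH5, 19 CLDN5 and 12 SOX17 UMIs and none of SPN or PTPRC. A second Hashtag-0253 cell, with 24191 UMIs, had 25 KDR, 17 CDH5, 12 CLDN5 and 3 SOX17 UMIs and 58 of RAMP2, a receptor-associated protein of endothelium. Not all of the 8 lacked blood genes. The cell in the macrophage gate had 4 CDH5, 7 CLDN5 and 6 KDR UMIs together with 8 CORO1A, 3 PTPRC and 14 ARHGDIB UMIs. A Hashtag-0254 cell with all 4 genes had 3 SPN, 1 PTPRC and 3 RUNX1 UMIs, at 1560 CPM of the blood list. A Hashtag-0255 cell with 7 CDH5 and 3 SOX17 UMIs had 3 RUNX1, 4 MYB and 2 VAV1 UMIs, at 1309 CPM of that list. Scrublet marked none of the 8 as a doublet, and whether any droplet held 2 cells was not tested further. The 14 cells with 2 of the 4 genes had a blood list of 2172 CPM and 961 CPM of the other endothelial genes. The 193 cells with 1 of the 4 had a blood list of 2520 CPM and 286 CPM of those genes. Most of the single UMIs thus lay in cells with blood transcripts.

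**Figure D2:**
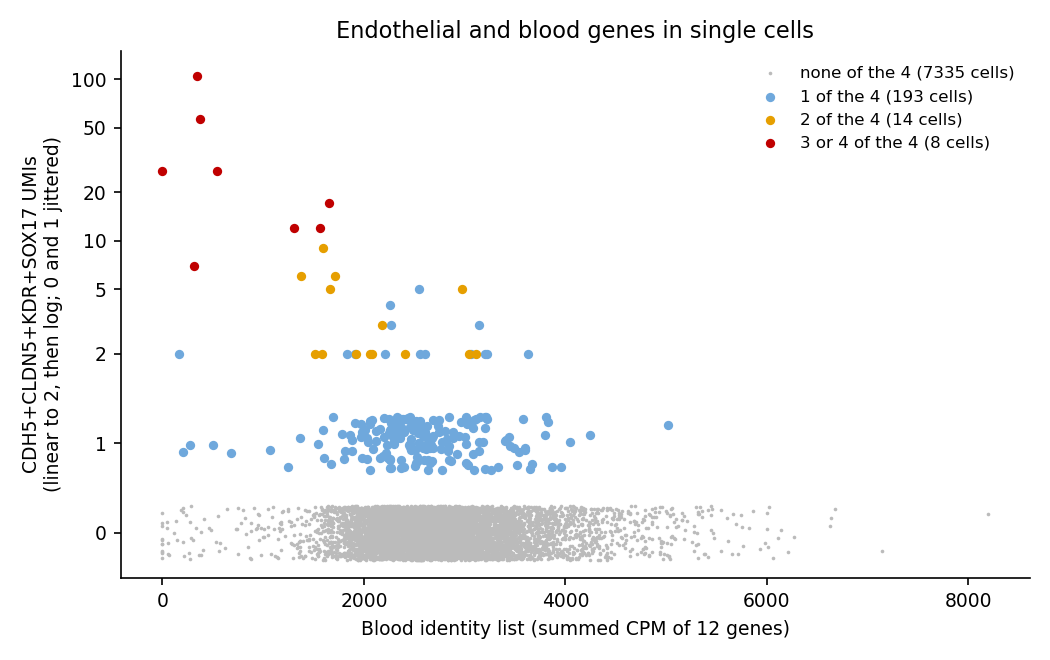
Each point is 1 of 7550 cells, with the summed CPM of 12 blood identity genes on the horizontal axis and the summed UMIs of CDH5, CLDN5, KDR and SOX17 on the vertical axis (linear to 2, then log). The 8 cells with 3 or 4 of the genes lie between 0 and 1655 CPM of the blood list, and the cells with 1 of them lie among the others.

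Co-detection was then counted over all 9 members. At least 1 member was found in 85.9% of cells, at least 2 in 46.9% and at least 3 in 1123 cells (14.9%, 14.1 to 15.7), and 4 cells held all 9. Depth moved with these counts, because cells with no member had a median of 12797 UMIs and cells with 3 members had 21285. At 5000 UMIs a cell, at least 3 members were found in 1.62% of cells. Of the 1123 cells with at least 3 members, 912 (81.2%) held EGFL7, TIE1 and ESAM together and 203 held 2 of these 3 genes. Over all cells, 942 held both TIE1 and ESAM against 689 given by the product of their shares. EGFL7 was seen in 94.9% of ESAM-positive and 76.4% of ESAM-negative cells. CDH5 and CLDN5 were found together in 14 cells where the product of their shares gives 0.944, a ratio of 14.8, and 8 of those 14 cells are the 8 described above. Without them 6 cells had both, against 0.766, a ratio of 7.83. CLDN5 and KDR shared 11 cells against 0.517, and 3 against 0.394 without the 8 cells. EMCN, which the grouping did not use, was found in 25.2% (17.6 to 34.2) of CDH5-positive cells and 2.60% (2.25 to 2.98) of CDH5-negative cells, and 22 of the 29 shared cells were not among the 8. ESAM was seen in 65.7% of TEK-positive cells and 23.5% of TEK-negative cells. At 5000 UMIs a cell CDH5 and CLDN5 shared 9 cells against 0.104, and 7 of these 9 were among the 8 cells, since without them 2 cells were shared against 0.0539.

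Cells were sorted into gates by their markers, at least 3 markers of a lineage with at least 2 UMIs each. Cells outside all gates with at least 2 CD34 UMIs formed the CD34 gate (2825 cells). No gate was set on endothelial genes, and cells entered the CD34 gate whatever their level of blood identity genes. Endothelial cells with CD34 UMIs were therefore not separated from it. Of the 8 cells described above, 5 lay in the CD34 gate, 2 were ungated and 1 was in the macrophage gate. The other gates were erythroid (167 cells), megakaryocyte (124), neutrophil (788), eosinophil (118), macrophage (932) and stromal (75), with 15 mast cells or basophils, 362 cells in several gates and 2144 ungated cells. Junction genes first: ESAM was highest in the megakaryocyte gate at 141 CPM (127 to 157), where 91.9% of cells had a UMI. It was at 47.3 CPM (40.3 to 55.1) in the erythroid and 33.1 CPM (31.6 to 34.6) in the CD34 gate, and at 4.59 CPM in the neutrophil and 2.37 CPM in the macrophage gate. The megakaryocyte and macrophage levels thus differed by far more than their counting intervals. After thinning, ESAM was detected in 52.8% of megakaryocyte and 1.19% of macrophage cells. CDH5 was at 2.26 CPM (1.90 to 2.68) in the CD34 gate, 0.540 CPM (0.233 to 1.06) in the neutrophil gate and 1.12 CPM (0.638 to 1.81) in the macrophage gate. None of the 75 stromal cells had a CDH5 UMI, a count of 0 that allows up to 4% of cells with a UMI and sets no limit on cells that make the transcript. Without the 8 cells, CDH5 was at 1.31 CPM (1.04 to 1.64) in the CD34 and 0.838 CPM (0.433 to 1.46) in the macrophage gate, and these intervals overlap. CLDN5 was at 1.69 CPM (1.38 to 2.06) in the CD34 and 2.45 CPM (0.901 to 5.34) in the megakaryocyte gate, with intervals that overlap. The CD34 level was 0.806 CPM (0.594 to 1.07) without the 8 cells, and its interval also overlapped that of the megakaryocyte gate. With gates of at least 4 UMIs per marker CLDN5 was at 1.58 CPM (1.29 to 1.92) in the CD34 and 5.71 CPM (2.47 to 11.3) in the megakaryocyte gate, and there the intervals did not overlap. The stricter megakaryocyte gate held 65 cells, and cells in several gates went from 362 to 144. It can thus hold cells that were in several gates before. CLDN5 had 6 UMIs in the 124 megakaryocyte cells and 11 in the 362 cells in several gates. None of the 788 neutrophil-gate cells had a CLDN5 UMI, which allows up to 0.381% of cells with a UMI, and outside the 8 cells no macrophage-gate cell had one either.

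Among the receptors, TIE1 was found in every gate. It stood at 36.0 CPM (34.5 to 37.5) in the CD34, 34.4 CPM (28.5 to 41.1) in the erythroid and 26.8 CPM (25.1 to 28.5) in the ungated cells, then at 25 CPM in megakaryocyte, 24.3 CPM in eosinophil and 19.6 CPM in neutrophil cells. It was at 12.3 CPM (10.5 to 14.2) in macrophage and 7.95 CPM (3.63 to 15.1) in stromal cells. The first pair did not differ beyond their intervals, nor did the last pair. TEK was at 7.95 CPM (3.63 to 15.1) in the stromal gate, with 9 UMIs, at 3.73 CPM (1.98 to 6.37) in the erythroid gate, whose interval overlaps, and at 1.43 CPM (1.14 to 1.76) in the CD34 gate. KDR was at 6.18 CPM (2.48 to 12.7) in the stromal gate, with 7 UMIs, at 2.05 CPM (0.664 to 4.77) in the megakaryocyte gate, whose interval overlaps, and at 1.95 CPM (1.61 to 2.33) in the CD34 gate. The CD34 level of KDR was 0.605 CPM (0.424 to 0.837) without the 8 cells. No KDR UMI was seen in erythroid, neutrophil or eosinophil cells, where a count of 0 allows up to 0.860, 0.203 and 1.32 CPM. Of these limits only that of neutrophil cells lay under the CD34 level without the 8 cells. EMCN was at 27.4 CPM (18.6 to 38.9) in the stromal gate, with 31 UMIs, against 3.79 CPM (3.31 to 4.32) in the CD34 gate, 1.10 CPM (0.788 to 1.5) in ungated and 0.139 CPM (0.0169 to 0.504) in macrophage cells. EMCN in the stromal gate thus lay above the CD34 gate beyond counting error. Its UMIs lay in 13 of the 75 stromal cells, and the interval does not cover the spread between cells. Of the stromal cells, 47 carried Hashtag-0255, so this gate came mostly from 1 pool of wells. CDH5, CLDN5 and SOX17 had no UMI in the stromal gate, but a count of 0 there allows up to 2.65 CPM, which is above their CD34 levels, so no difference was detectable at this depth.

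EGFL7 had the widest use. It was at 304 CPM (300 to 309) in the CD34 gate, where 96.0% of cells had a UMI, at 218 CPM (200 to 237) in megakaryocyte, 178 CPM (171 to 184) in neutrophil and 168 CPM (151 to 186) in eosinophil cells. Ungated cells had 145 CPM (141 to 149) and erythroid cells 143 CPM (131 to 156). The lowest were the stromal gate with 77.7 CPM (62.3 to 95.7) and the macrophage gate with 58.6 CPM (54.7 to 62.7). Macrophage cells had a median of 14181 UMIs and CD34-gate cells of 20380, but after thinning to equal depth EGFL7 was still detected in 19.8% (17.3 to 22.5) of macrophage and 71.1% (69.4 to 72.8) of CD34-gate cells. Free RNA in droplets can give UMIs in cells that do not make a transcript, and empty droplets were not analysed here. In the neutrophil gate CDH5 had 8 UMIs and was found in 1.02% of cells at a median of 18514.5 UMIs, while CLDN5 and KDR had none. Whether these cells make CDH5 was not tested, and TIE1 was found in 28.2% and EGFL7 in 82.2% of them. The CDH5 share in the CD34 gate was 2.65% (2.09 to 3.32) at a median of 20380 UMIs. It was above the upper bound of 1.99% in the neutrophil gate. Without the 8 cells it was 2.48% (1.94 to 3.13), which touches that bound. After thinning the shares were 0.850% (0.545 to 1.26) and 0.128% (up to 0.710), and macrophage cells gave 0.541% (0.176 to 1.26). The part of free RNA in these shares was not tested. SOX17 had UMIs in the CD34, ungated and erythroid gates only, and at most 0.386 CPM in any gate.

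**Figure D3:**
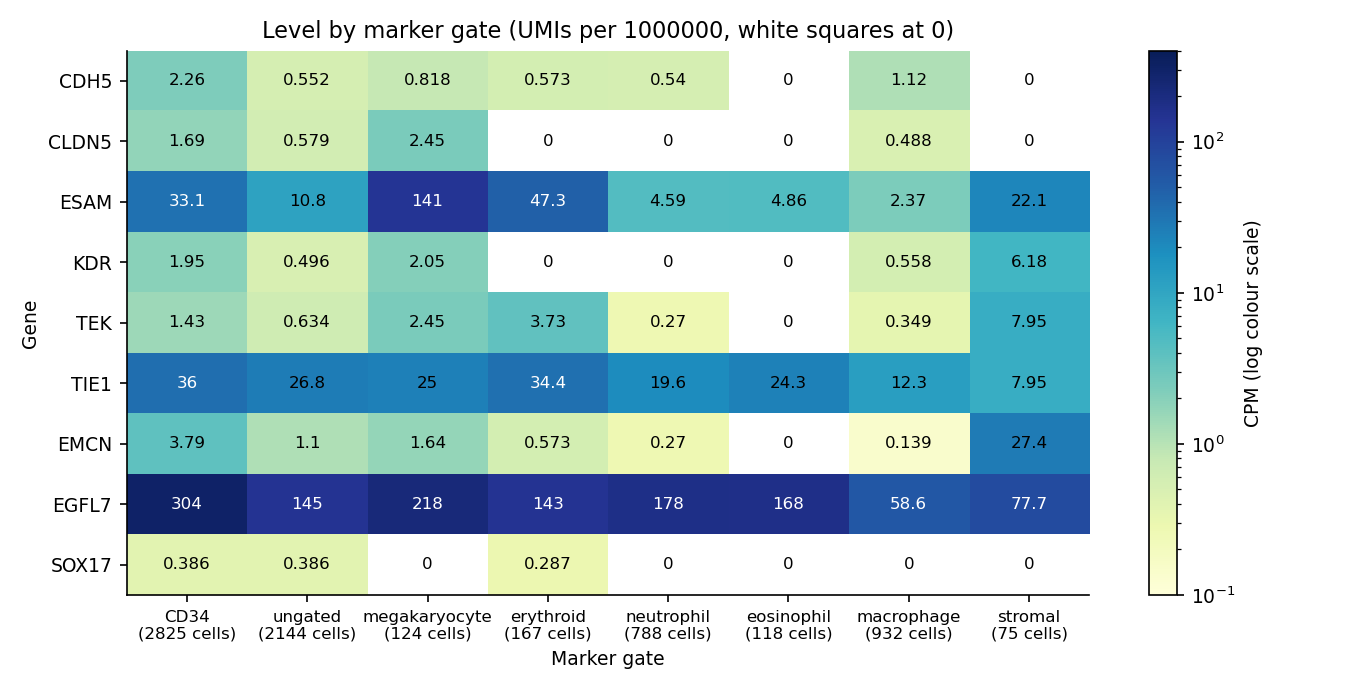
CPM of the 9 members (rows) in 8 marker gates (columns, with their numbers of cells), on a log colour scale with white for 0. EGFL7 and TIE1 are present in every gate, ESAM peaks at 141 CPM in the megakaryocyte gate, and EMCN peaks at 27.4 CPM in the stromal gate.

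Members also differed by the mitochondrial share of the cell, whose median was 13.1%. For this comparison levels are per 1000000 UMIs outside the mitochondrial genes. The 736 cells with at most 10% mitochondrial UMIs were set against the rest. Genes with at least 50 UMIs were compared, and those at least 2-fold apart were counted as past 2-fold. Of 8 members with enough UMIs, 4 were past 2-fold higher in the low-mitochondrial cells and none lower, where 4.56% of all 14767 genes were higher and 3.36% lower. CDH5 was at 6.25 CPM (4.91 to 7.85) against 1.0 CPM, CLDN5 at 6.09 against 0.661 CPM, KDR at 8.11 against 0.554 CPM and EMCN at 6.51 against 2.10 CPM. SOX17, with under 50 UMIs, had 26 of its 38 UMIs in these cells. All 26 lay in cells of the 8 described above, which held 12, 3, 9, 2 and 0 SOX17 UMIs at this mitochondrial share. ESAM and TIE1 lay the other way. ESAM went from 19.4 CPM (16.9 to 22.0) at 10% or less to 36.7 CPM (34.5 to 39.0) at 14 to 16%, and TIE1 from 27.0 CPM (24.1 to 30.1) to 41.2 CPM (37.5 to 45.2) at 16 to 18%. EGFL7 was at 229 and 240 CPM in the low and the other cells. The other endothelial list had a median log2 ratio of 0.60, with 9 of 22 genes past 2-fold higher, the arterial list 0.94 with 4 of 8, the venous list 1.98 with 2 of 4, and the blood identity list 0.02 with 0 of 12, beside 0.06 over all genes tested. Without the 8 cells 6 of 20 of the other endothelial list were higher and 1 lower (S1PR1, 0.425 against 1.13 CPM), and the venous count stayed at 2 of 4. The arterial count fell to 1 of 8 higher (HEY2, 2.46 against 1.07 CPM), with 1 lower (GJA4, 9.09 against 25 CPM).

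Of the 8 cells with several endothelial genes, 5 had at most 10% mitochondrial UMIs, and their range over the 8 was 3.79% to 12.1%. Without the 8 cells CDH5 was at 1.27 CPM (0.713 to 2.10) in low-mitochondrial cells against 0.894 CPM (0.727 to 1.09), so the difference was no longer beyond counting error. The 8 cells were picked by CDH5, CLDN5, KDR and SOX17, so levels of these genes had to fall without them. CLDN5 at 1.27 against 0.518 CPM, KDR at 1.27 against 0.474 CPM and EMCN at 5.35 against 2.06 CPM stayed past 2-fold, with 15, 15 and 63 UMIs. These 3 members compare with 4.25% of all genes higher and 3.45% lower without the 8 cells. The gates moved with the bins: neutrophil cells were 33.4% of the lowest bin and 1.10% of the highest, the CD34 gate 19.4% and 38.5%, and stromal cells 5.30% and 0.613%. Their part in the result was not tested over all cells, but within the CD34 gate EMCN was at 13.9 CPM (9.99 to 18.7) in the lowest bin and 1.87 CPM (0.855 to 3.55) in the highest. Within that gate TIE1 was at 49.5 CPM (41.9 to 58.1) and 52.2 CPM (45.9 to 59.0) in the same bins, with intervals that overlap, and ESAM at 43.6 CPM (36.4 to 51.7) and 39.7 CPM (34.3 to 45.7). Between 10 and 12% the CD34 gate had 34.5 CPM (31.2 to 38.0) of TIE1 and 27.5 CPM (24.5 to 30.6) of ESAM. With the 8 cells included, these levels were below both ends of the range. Above this bin TIE1 in that gate was at 38.5 (35.7 to 41.4), 45.9 (42.4 to 49.6) and 52.2 CPM. Of these steps only that from 38.5 to 45.9 CPM was beyond counting error. ESAM was at 38.2, 45.3 and 39.7 CPM in the same bins, so it did not increase into the highest. These CD34-gate levels include the 8 cells. In the lowest bin the cell with most endothelial UMIs held 18 of 150 TIE1 and 12 of 132 ESAM UMIs. The second Hashtag-0253 cell described above held 8 TIE1 and 13 ESAM UMIs. A Hashtag-0255 cell of the 8 held 4 TIE1 and 4 ESAM UMIs in this bin, and a Hashtag-0252 cell 1 TIE1 and 4 ESAM UMIs. Of the 42 EMCN UMIs of the bin, these cells held 2, 4, 0 and 6 in the same order. Whether the low end stays above the next bin without these cells was not tested. Levels by bin in this gate without the 8 cells are not given here.

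**Figure D4:**
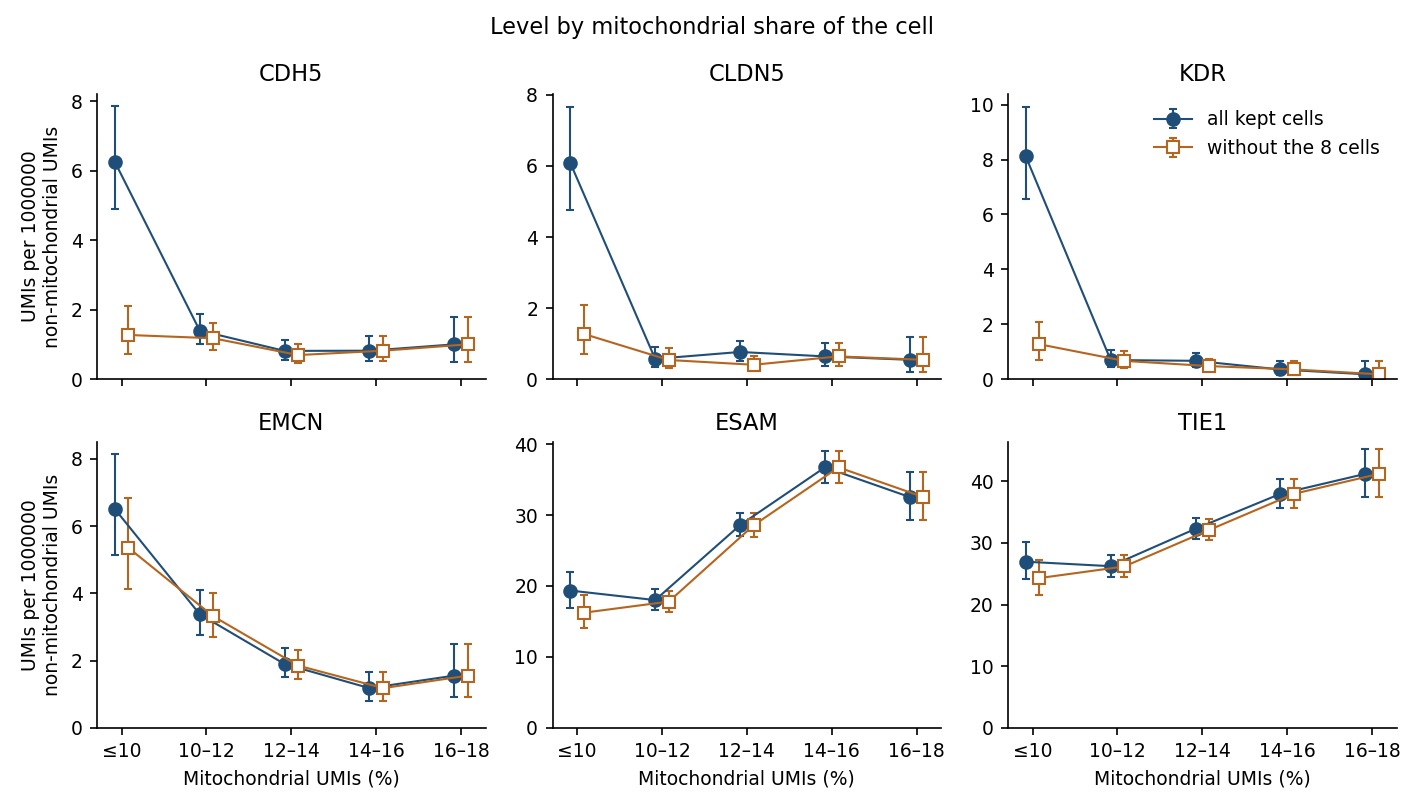
UMIs per 1000000 non-mitochondrial UMIs of 6 members in 5 bins of the mitochondrial percent of the cell, with 95% counting intervals, for all kept cells and without the 8 cells with 3 or 4 of CDH5, CLDN5, KDR and SOX17. The lowest bin of CDH5, CLDN5 and KDR drops to 1.27 without the 8 cells, while EMCN, ESAM and TIE1 keep their course.

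Between hashtags EGFL7 and TIE1 moved less than ESAM. EGFL7 was at 211, 195 (191 to 199), 216 (211 to 221) and 211 CPM with Hashtag-0252, Hashtag-0253, Hashtag-0254 and Hashtag-0255. TIE1 was at 27.9, 28.2, 30.2 (28.4 to 32.1) and 25.9 CPM (24.1 to 27.9) in the same order. For each gene the lowest and highest of these levels differed beyond counting error. ESAM was at 27.5 CPM (25.9 to 29.2) and 28.7 CPM (27.0 to 30.4) with Hashtag-0252 and Hashtag-0253, and at 20.4 CPM (18.9 to 22.0) and 15.6 CPM (14.2 to 17.1) with Hashtag-0254 and Hashtag-0255. The first pair of hashtags thus lay above the second pair beyond counting error, with a ratio of 0.649 for the second over the first. The megakaryocyte gate moved the same way, with 2.57%, 2.56%, 0.596% and 0.446% of cells. Within the CD34 gate alone ESAM was at 34.2 (31.6 to 36.9), 44.3, 29.4 (26.7 to 32.2) and 23.0 CPM, so the order of the pairs was the same there. The intervals of Hashtag-0252 and Hashtag-0254 overlapped in that gate, so those hashtags were not separated there beyond counting error. Hashtag-0253 (40.8 to 47.9) lay above both hashtags of the second pair. Hashtag-0255 (20.4 to 26.0) lay below both hashtags of the first pair. ESAM levels of the summed pairs in that gate are not given here. Over all cells no member was past 2-fold between these pairs, beside 1.93% of genes higher and 1.78% lower. Within the CD34 gate 2 of 8 members were past 2-fold lower with the second pair, where 0.52% of genes were higher and 0.877% lower. They were KDR, at 0.921 against 2.80 CPM, and TEK, at 0.884 against 1.88 CPM. These values were 0.663 against 0.555 CPM for KDR and 0.885 (0.567 to 1.32) against 1.57 CPM (1.17 to 2.07) for TEK without the 8 cells, with intervals that overlap. In the arterial list GJA4 was lower with Hashtag-0254 and Hashtag-0255, at 10.1 against 29.6 CPM, and HEY2 was higher, at 1.72 against 0.545 CPM.

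Among the rare members, the level of KDR with Hashtag-0253 rested mostly on the 8 cells. KDR was at 0.594 CPM (0.380 to 0.884) with Hashtag-0252, 2.13 CPM (1.70 to 2.65) with Hashtag-0253, 0.864 CPM (0.583 to 1.23) with Hashtag-0254 and 0.771 CPM (0.483 to 1.17) with Hashtag-0255. Hashtag-0253 stood apart from the other 3, and 72 of its 82 KDR UMIs came from 2 cells. Without the 8 cells KDR with Hashtag-0253 was at 0.260 CPM (0.125 to 0.479), the lowest of the 4. Summed over CDH5, CLDN5, KDR and SOX17, the levels were 2.35, 5.62, 3.00 and 3.96 CPM with all cells and 2.18, 1.41, 2.16 and 1.65 CPM without the 8, of which 1, 2, 2 and 3 carried the 4 hashtags. EMCN was lower with Hashtag-0253, at 1.20 CPM (0.876 to 1.60), than with Hashtag-0252 at 2.80 CPM (2.30 to 3.36), Hashtag-0254 at 2.56 CPM (2.06 to 3.16) and Hashtag-0255 at 2.24 CPM (1.73 to 2.87), and without the 8 cells it was at 1.04 against 2.65 CPM for Hashtag-0253 and Hashtag-0252. TEK ranged from 0.877 to 1.38 CPM with intervals that overlap. Of 8 members with at least 50 UMIs in both hashtags together, KDR was past 2-fold higher and EMCN past 2-fold lower with Hashtag-0253 than with Hashtag-0252, where 0.829% of 13624 genes were higher and 0.367% lower. Within the CD34 gate 3 of 8 members were higher with Hashtag-0253 (CDH5, CLDN5 and KDR) and EMCN was lower, where 0.271% of genes were higher and 0.33% lower. Once the 8 cells were left out, none of the 5 members still with enough UMIs there was higher, beside 0.153% of genes. CDH5 was at 1.03 against 1.12 CPM and KDR at 0.295 against 0.744 CPM, both then under 50 UMIs. CLDN5 also fell under 50 UMIs, as the same 2 cells held 19 and 12 of its 36 UMIs with Hashtag-0253. EMCN stayed lower at 1.91 (1.25 to 2.81) against 4.41 CPM (3.51 to 5.47), beside 0.381% of genes. Between Hashtag-0255 and Hashtag-0254 no member was past 2-fold, where 0.629% of genes were higher and 0.322% lower.

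**Figure D5:**
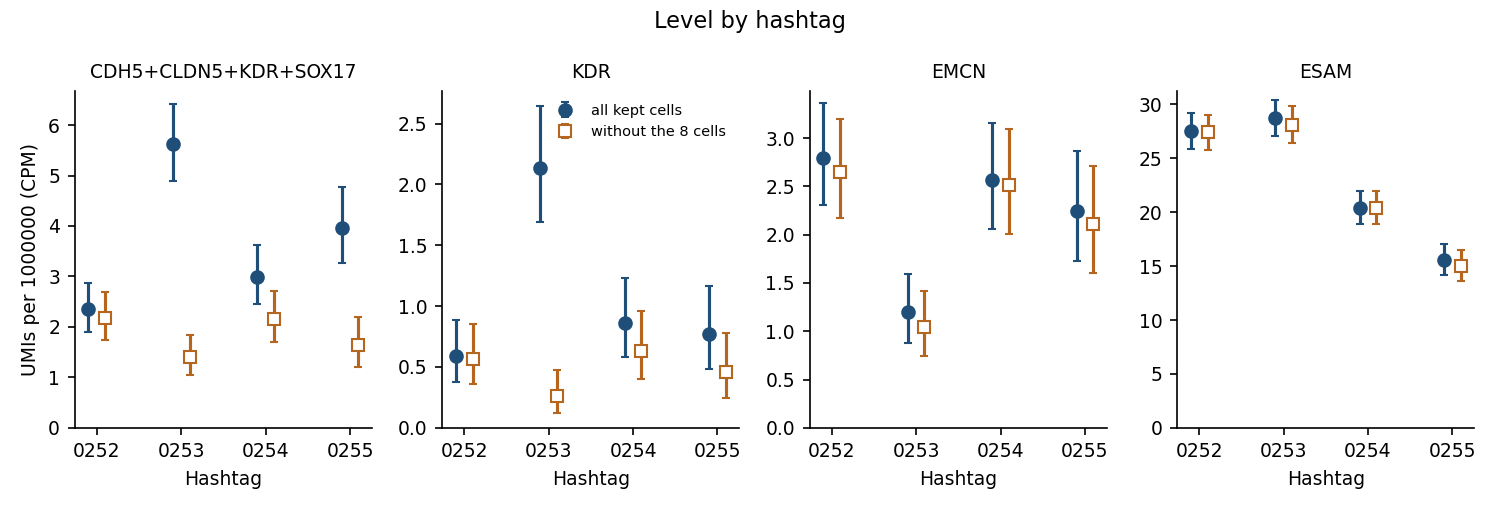
CPM by hashtag of the sum of CDH5, CLDN5, KDR and SOX17 and of KDR, EMCN and ESAM, with 95% counting intervals, for all kept cells and without the 8 cells. KDR with Hashtag-0253 drops from 2.13 to 0.260 CPM, and ESAM is lower with Hashtag-0254 and Hashtag-0255 in both.

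To describe what goes with these genes, the 163 cells (2.16%, 1.84 to 2.51) with a CDH5 or CLDN5 UMI were set against the 7387 cells with neither. They lay mostly in the CD34 gate (106 cells), with 18 ungated, 13 macrophage, 8 neutrophil, 7 megakaryocyte, 2 erythroid and 9 mixed cells, and were deeper, at a median of 21073 against 18256 UMIs. Of 6 other members with at least 50 UMIs, KDR (29.0 against 0.418 CPM), TEK (7.24 against 0.952), EMCN (21.4 against 1.72) and ESAM (56.8 against 22.9) were past 2-fold higher, while EGFL7 (404 against 203) and TIE1 (51.8 against 27.6) were just inside it. Over all 14767 genes 4.9% were past 2-fold higher and 5.99% lower. Of the arterial genes with enough UMIs, 8 of 8 were past 2-fold higher, with a median log2 ratio of 2.82 and a median of 0.02 over all genes. They were GJA5 (26.1 against 0.599 CPM), EFNB2 (42.9 against 4.62), GJA4, HEY2, NOTCH4, JAG2, UNC5B and BMX, and DLL4, the lowest of the list at 0.106 CPM in the pool, had too few UMIs. Of the other endothelial list 16 of 22 were higher, with a median log2 ratio of 1.74. They were VWF, FLT1, ROBO4, MMRN2, ECSCR, PLVAP, ERG, SOX7, SOX18, RAMP2, CD93, S1PR1, ARHGEF15, MCAM, CAV1 and TM4SF1. The highest of that list in the pool were PLVAP at 34.0, ENG at 32.1, ICAM2 at 29.5 and ERG at 15.2 CPM, of which ENG and ICAM2 were inside 2-fold, and CLEC14A was the lowest at 0.218 CPM. Venous genes were higher in 3 of 4 (NR2F2, NRP2 and FLT4) with EPHB4 inside 2-fold, and APLNR had too few UMIs. None of the 12 blood identity genes was past 2-fold in either direction, with a median log2 ratio of -0.13, and CORO1A was at 328 against 459 CPM.

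Without the 8 cells, 155 cells with a CDH5 or CLDN5 UMI remained, and 3.57% of all genes were past 2-fold higher and 6.66% lower. KDR (3.00 against 0.418 CPM), TEK (3.90 against 0.952 CPM) and EMCN (16.8 against 1.72 CPM) stayed past 2-fold, and ESAM (44.7 against 22.9 CPM) came to lie just inside. The arterial genes EFNB2 (26.4 against 4.62 CPM), GJA5 (9.30 against 0.599 CPM), HEY2 (7.80 against 0.887 CPM), GJA4 and BMX stayed past 2-fold. Among other endothelial genes ECSCR, PLVAP, ERG, SOX7, SOX18, RAMP2 and TM4SF1 did, 7 of 20 with enough UMIs. Of the venous genes FLT4 was past 2-fold higher at 4.8 against 2.22 CPM, EPHB4 was at 5.10 against 4.84 CPM, and NRP2 was past 2-fold lower at 0.600 (0.0727 to 2.17) against 2.47 CPM (2.22 to 2.75) with 2 UMIs. NR2F2 had no UMI in the 155 cells and 0.844 CPM in the others, which is under the 0.900 CPM that a count of 0 allows. These cells hold few UMIs of several of these genes, with 31 of GJA5. BMX, TM4SF1 and SOX7 had only 58, 104 and 152 UMIs over all kept cells. Intervals for their levels in the 155 cells are not given here.

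Over the whole table, the 12 genes with the largest ratio in cells with a CDH5 or CLDN5 UMI (on the log2 scale with 1 CPM added, over 163 and 7387 cells) were IGF2, KDR, GJA5, RAMP2, LIMCH1, ECSCR, FN1, THSD7A, PPBP, EMCN, EFNB2 and GBP4. IGF2, a growth factor, was at 153.8 against 4.87 CPM, and the 8 cells held 28.6% of its UMIs. FN1, the matrix protein fibronectin, was at 123 against 13.9 CPM and fell to 15.3 CPM without the 8 cells. THSD7A went from 9.56 to 0.900 CPM without them. ECSCR, an endothelial surface protein, held at 22.5 against 2.62 CPM and GBP4, an interferon-induced GTPase, at 28.8 against 3.91 CPM. PPBP, a platelet chemokine, had no UMI in the 8 cells and was at 398 CPM in the 155 others against 45.4 CPM in cells with neither gene. The megakaryocyte gate, which PPBP helps define, gave 7 of the 163 cells.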

How the data were processed

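Droplet-based 3′ single-cell RNA sequencing was performed on 1 pool of hashtagged nonadherent cells. Cell Ranger 6.0.1 with the hg19 genome was used by the authors, and UMI counts for each gene and barcode were deposited without normalization, along with a hashtag call per barcode, which was taken as it stood. Barcodes called doublet (1339) or negative (1009) were left out of the comparisons. The other limits follow the filter given in the report. Mapping UMIs to 1 gene each, without length correction, means that levels are molecules captured at the 3′ end.

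Summed UMIs were divided by the total of the same cells (CPM) and carry exact Poisson intervals, and shares of cells exact Clopper-Pearson intervals, at the 95% level. For a share of 0, the limit is 3 counts. Cells were thinned to 5000 UMIs at random without replacement, and 68 shallower cells were left out. Genes with at least 50 UMIs in the 2 groups together were compared, and those at least 2-fold apart in CPM were counted as past 2-fold. With 1 library no test was run. Gates needed 3 markers with 2 UMIs each, and a cell passing several gates was called mixed. Scrublet, run through scanpy 1.11.5 with an expected rate of 6%, marked 63 kept cells and removed none. The scripts ran in Python 3.11.15, with matplotlib 3.10.9, pandas 2.3.3, scipy 1.17.1 and numpy 2.4.6.

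Genes named were the members, of each list the 4 highest and the lowest in CPM and those past 2-fold between cells with and without a CDH5 or CLDN5 UMI, and the 12 genes with the largest ratio there. The members, lists and hashtag pairs were chosen with earlier results of these data known. Alternatives were thinning, doublet removal, other limits on cells and genes, median centring, stricter gates and, added after seeing the data, leaving out the 8 cells with 3 or 4 of CDH5, CLDN5, KDR and SOX17.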

Additional observations from a re-analysis of the deposited data

Results flagged for a closer look

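Barcodes outside the kept cells also carried the junction genes. Among the 809 barcodes called negative for hashtags but within the other limits, 2.22% had a CDH5 or CLDN5 UMI (1.32 to 3.49), and 2 of them held 3 or 4 of CDH5, CLDN5, KDR and SOX17. Among the 834 called doublet and within the limits, the share was 4.20% (2.94 to 5.79), at a median of 22004 UMIs, and 9 barcodes held 3 or 4 of the genes. Of the 542 barcodes with a single hashtag and over 18% mitochondrial UMIs, 0.923% (0.30 to 2.14) had a UMI of either gene, at a median of 9149 UMIs. Of the 397 barcodes with a single hashtag that were over the UMI or gene limit, 7.56% (5.16 to 10.6) had a UMI of either gene, at a median of 39736 UMIs, and 5 held 3 or 4 of the 4. These barcodes were pointed out because no comparison in the report used them and each share exceeded the limit that a count of 0 allows. The kept cells had 2.16%. The median of the kept cells was 18318.5 UMIs, and the part of depth in these shares was not tested.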

How the results depend on the processing

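The share of cells with a CDH5 or CLDN5 UMI was 2.16%, and it was 0.668% at 5000 UMIs a cell and 3.26% with a mitochondrial limit of 10%. The share with at least 3 members was 14.9%, and 1.62%, 9.92% and 16.2% with thinning, the 10% limit and no limit on UMIs or genes. The ratio for CDH5 with CLDN5 was 14.8, 86.3 at 5000 UMIs, where it rests on 9 cells, 7.83 without the 8 cells, and 37.1 with both, where it rests on 2 cells. Removing Scrublet doublets, or leaving out stromal and mixed cells, kept these 3 values inside their counting intervals. Counts of genes past 2-fold moved with the minimum of UMIs, by construction, since more or fewer genes are counted. With at least 50 UMIs they were 548 between the hashtag pairs, 163 between Hashtag-0253 and Hashtag-0252, 127 between Hashtag-0255 and Hashtag-0254, 1170 by mitochondrial share and 1607 by CDH5 or CLDN5. With at least 10 UMIs they were 1318, 792, 699, 2714 and 4282, and with 200 they were 268, 61, 36, 527 and 634. Within the CD34 gate the last was 1027. Requiring 4 UMIs per gate marker moved 9 of 63 member levels by gate outside their counting interval, and leaving out the 8 cells moved 9 of 63 by gate and 9 of 36 by hashtag. No paired analysis was possible because there is 1 library and no replicate. Depth limits SOX17, CLDN5, KDR and CDH5 in gates of few cells.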
